A study of Physcomitrium patens with 8 samples.

Results

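The comparison described here sets the atg5 line of the moss Physcomitrium patens against wild type (WT) after exposure to abscisic acid (ABA). It rests on the 2 dye-swapped arrays of the ABA treatment, out of 8 arrays in all, and was chosen by treatment label and not by any measured value. Both groups were protonemal colonies, the filamentous stage of the moss, grown for 7 days at 25 °C in continuous light on a medium supplied with ammonium tartrate and glucose. They were then moved for 24 h, in the light, to fresh medium with 50 µM cis-trans ABA. WT and atg5 RNA from the same treatment were hybridised together. On replicate 1 WT carried the dye Cy3 and atg5 carried Cy5, and on replicate 2 the dyes were exchanged. For comparison, each of the other treatments also had 2 dye-swapped arrays of WT against atg5. Hydration stands for 7-day colonies with no treatment. For Dehydration the colonies were kept for 24 h in a closed jar with silica gel, and Rehydration was 24 h of recovery on medium after such drying. The labels do not say that the dried or rewetted colonies received ABA. No undried colonies were kept for 24 h on fresh medium without ABA. Between Hydration and ABA, the hormone, the further 24 h and the move to fresh medium therefore cannot be told apart. Wording such as raised by ABA stands below for this whole change.

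The labels name a single knockout line, with no rescued line among the samples, so an effect of the missing gene and any other difference of this line from WT cannot be told apart. There was no WT array against WT, so every effect is the ratio of the genotypes on a shared spot. In these whole colonies fewer cells of a type and less RNA per cell cannot be told apart. The labels call the arrays of a treatment biological replicates, and do not say whether the colonies were cultured separately. Replicate number, slide, scan and dye orientation coincide.

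Autophagy wraps portions of the cytoplasm in a double membrane and carries them to the vacuole for breakdown. ATG5 is joined covalently to ATG12, and this conjugate helps to attach ATG8 to the lipid of the growing membrane. ABA binds PYL receptors, which then hold back PP2C phosphatases and so release SnRK2 kinases. In moss protonemata ABA is known to slow growth and to bring on late embryogenesis abundant proteins and tolerance of drying. The array files carry identifiers of an earlier gene set and no gene names, so transcripts are given by identifier and no role is assigned to them. Transcripts of ATG5, of the ABA pathway and of protonemal marker genes were therefore not analysed here, and neither were probe sequences.

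Each array held 38316 gene spots of 38181 probes. On the ABA arrays 39.0 and 48.7% of gene spots were well above background in WT (replicate 1 first), against 42.3 and 37.1% in atg5. The range over all 16 channels was 19.3 to 53.5%, with the Rehydration arrays the dimmest at 19.3 to 30.6%. No gene spot was saturated (0 on every array). A total of 19664 probes from 15446 loci were tested. Of these, 160 had a usable ratio on only 1 of the ABA arrays.

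On ABA the transcripts that differed most were higher in atg5, and the falls were shallow. In limma's fit across all probes, 1685 of 19664 probes (8.57%) were higher in atg5 and 960 (4.88%) were lower at an adjusted p under 0.05, the threshold for a call throughout. Together these 2645 probes came from 2145 loci. The median called rise was 1.45-fold (log2 0.53) and the median called fall 1.35-fold (log2 -0.43). At least 2-fold higher were 229 probes of 176 loci (1.16%), and at least 2-fold lower were 19 probes of 19 loci (0.0966%).

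These calls held between the arrays to the extent that their mean allows. The log2 ratios of the ABA arrays correlated at 0.716 over 19504 probes, which share the arrays and are not independent replicates. The SD between the arrays had a median of 0.111 on the log2 scale, and 16 probes differed by more than 1 log2 unit. Of all probes 65.4% had 1 sign on both arrays. The 2625 called probes with both ratios all did, but being called by the mean nearly ensures this. The count fell to 874 without ABA replicate 1 and to 760 without ABA replicate 2. Blocking by replicate number raised the count to 4589 (2621 higher, 1968 lower), and all 2645 were among them.

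The share of higher against lower calls depended on the normalisation within arrays and on the arrays and block used. Rises were 63.7% of calls here and 57.1% with the replicate block. The share was 63.9% with scale normalisation between arrays and 63.2% without background subtraction. Without ABA replicate 1 it was 78.0%, without ABA replicate 2 it was 80.7%, and with Agilent's processed signals it was 82.6% (352 higher, 74 lower). With median centring and the replicate block it turned to 16.8% (305 higher, 1509 lower), where the median of all probes lay at log2 -0.165 instead of -0.01. Of the differences of at least 2-fold, 133 were then rises and 151 falls, and with processed signals 330 and 62. Median centring alone left no call (0, with 168 at an unadjusted p under 0.05), at a median SE of 0.378 against 0.105. The excess of large rises over large falls is thus a statement about ratios normalised by loess or by the scanner software.

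**Figure D1:**
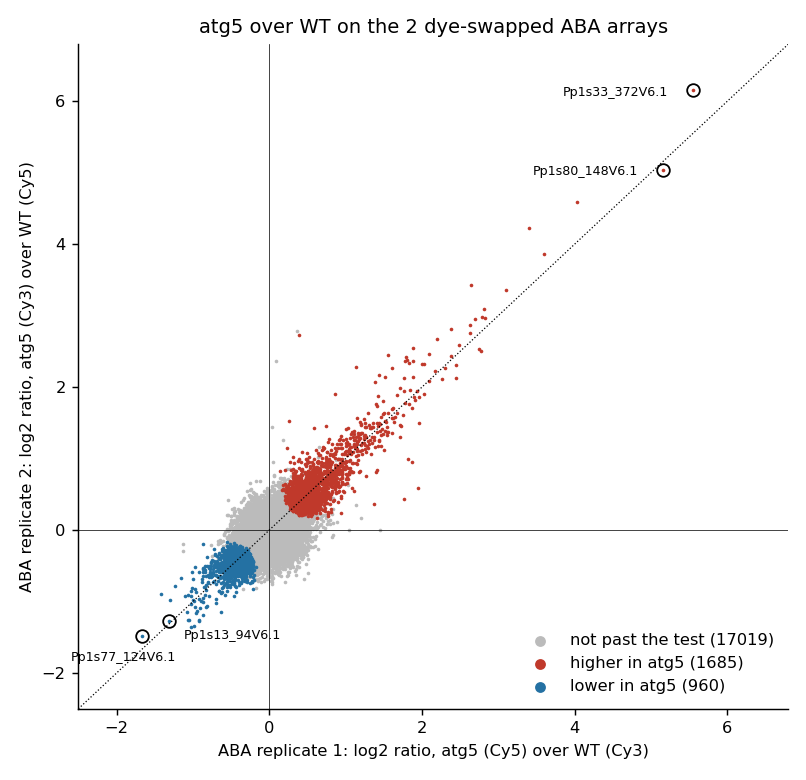
Log2 ratio of atg5 over WT on ABA replicate 1 (horizontal axis) and replicate 2 (vertical axis), where each point is a probe and the dotted line marks equal ratios. Red marks the 1685 probes higher in atg5, blue the 960 lower and grey the others, and the rises reach log2 5.85 while the falls end at log2 -1.57.

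Pp1s33_372V6.1 had the largest difference. Its processed signals on ABA, the scanner software's background-subtracted and dye-normalised intensities, were 246 and 256 in WT and 31830 and 33570 in atg5. The log2 ratio was 5.55 on replicate 1 and 6.15 on replicate 2, and the fitted difference was 5.85 ± 0.25 (SE, n = 2), or 57.8-fold, with an adjusted p of 3.87e-07. With processed signals, which carry no offset, the difference was larger, at log2 7.03. The groups did not overlap in ABA or in Hydration, where WT read 407 and 408 and atg5 38220 and 37140. ABA moved the signal little in either genotype, and the difference between the ABA and Hydration effects was -0.15 ± 0.36 (adjusted p = 0.842).

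Pp1s80_148V6.1 came next and was among the brightest spots. WT read 17090 and 27620 on ABA and atg5 643200 and 716500. The ratios were 5.15 and 5.04, and the fitted difference was 5.10 ± 0.16 (34.2-fold, adjusted p = 1.86e-07). In Hydration the fitted difference was 5.78, and the change of -0.68 ± 0.23 between the treatments did not pass the test (adjusted p = 0.103). Both of these probes were therefore high in atg5 with and without ABA.

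The largest falls had another history. Pp1s77_124V6.1 read 3997 and 3989 in WT on ABA and 1058 and 1158 in atg5, so the genotypes did not overlap. The ratios were -1.66 and -1.48, and the fitted difference was -1.57 ± 0.26 (2.96-fold lower, adjusted p = 0.00308). The call was lost without ABA replicate 1 (-1.48), with processed signals (-1.85, with or without the replicate block) and with median centring alone. In Hydration neither genotype was well above background, with signals of 17.1 and 21.7 in WT and 21.2 and 31.3 in atg5. Its level thus rose at least 12.7-fold in WT on ABA and at least 3.72-fold in atg5, where each bound is set, per array, against the probe's own Hydration level or the dimmest detected level, whichever was higher. Changes per genotype are given as values here and below, and the test was made on the mean of both genotypes (adjusted p = 0.0414 for this probe).

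Pp1s13_94V6.1 behaved alike in its values. It read 4009 and 4065 in WT on ABA and 1421 and 1275 in atg5, with ratios of -1.31 and -1.28. The fitted difference was -1.29 ± 0.09 (2.45-fold lower, adjusted p = 1.3e-05). In Hydration its signals lay between 31.2 and 60.4 in both genotypes, not well above background on any array. The rise on ABA was at least 10.9-fold in WT and at least 4.65-fold in atg5. Since neither Pp1s13_94V6.1 nor Pp1s77_124V6.1 was measured above background in Hydration, their genotype difference there is unknown, and so is its change with ABA.

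This held for most of the 19 probes that were at least 2-fold lower in atg5 on ABA. Their log2 differences ran from -1.57 to -1.0. Of the 19, 13 (68.4%) belonged to probes whose level, taken as the mean of both genotypes, rose at least 2-fold from Hydration to ABA, against 4.02% of all tested probes. In Hydration 11 of the 19 were well above background in neither genotype on any array. The Hydration log2 differences of all 19 lay between -0.997 and 0.36. There 6 were called lower (16.4% of all probes were) and 1 was called higher (15.5% of all probes were). In Dehydration 18 of the 19 were called lower, against 1295 of all 19664 probes. The exception was Pp1s77_124V6.1, whose Dehydration ratios of -1.38 and 0.17 disagreed. Of the 229 probes at least 2-fold higher in atg5, 18 (7.86%, against 4.02% of all probes) were raised at least 2-fold on ABA. Lowered at least 2-fold were 33, against 3.91% of all probes. No called change of level was found at 145 of the 229, against 15612 of all 19664 probes.

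The sizes of the differences fell off at unlike rates in the treatments. On ABA 722 called rises and 172 called falls reached 1.5-fold. Rises of 3-fold or more numbered 69, of at least 4-fold 38 and of at least 8-fold 7, whereas no called fall reached 3-fold in this fit (0 of 960). With median centring and the replicate block called falls passed 3-fold, among them Pp1s77_124V6.1 (log2 -1.94) and Pp1s13_94V6.1 (-1.69). In Hydration 60 called falls reached 3-fold and 19 reached 4-fold, beside 125 and 55 rises. In Rehydration 33 falls reached 3-fold beside 19 rises. In Dehydration, as on ABA, no called fall reached 3-fold (0), and 116 rises did.

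**Figure D2:**
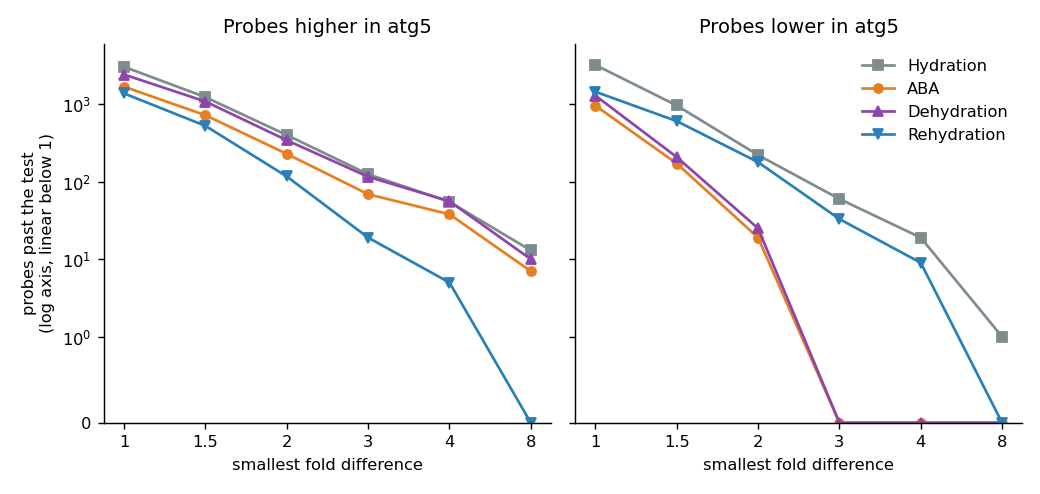
Number of probes past the test (vertical axis, logarithmic above 1) whose fold difference between atg5 and WT was at least the size on the horizontal axis, for rises (left) and falls (right). On ABA the counts of falls drop from 960 over 172 and 19 to 0 at 3-fold, whereas 69 rises remain at 3-fold.

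The share of probes called grew with brightness. When probes were split by mean level into 4 bins of 4916 probes, from the dimmest to the brightest 1.44, 4.86, 9.97 and 18.0% were called higher on ABA, and 0.346, 1.81, 5.90 and 11.5% were called lower. Of the 229 probes at least 2-fold higher, 144 were in the brightest bin and 0 in the dimmest. Of the 19 falls 18 were in the brightest bin. The normexp offset draws ratios of dim spots toward 0, so differences of dim probes are understated.

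The comparison with Hydration shows which genotype differences changed from Hydration to the ABA treatment. Equally, it shows which changes of level between these states differed between the genotypes. The difference of the atg5 effects passed the test for 1763 of 19664 probes (8.97%), at 1028 in the direction of higher atg5 on ABA and 735 in the other. With the replicate block 3811 were called (2131 and 1680). Leaving out 1 array gave 629 (without ABA replicate 1), 785 (without ABA replicate 2), 590 (without Hydration replicate 1) and 861 (without Hydration replicate 2). Processed signals gave 124, of which 113 were higher on ABA. Median centring with the replicate block gave 2170, of which 2108 were higher on ABA, and median centring alone gave 0 (234 at an unadjusted p under 0.05).

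Most Hydration rises of at least 2-fold were again called higher on ABA. Whether the effect was smaller there depended on the list followed. Of the 229 probes at least 2-fold higher in atg5 on ABA, 150 were so in Hydration (65.5% of the ABA list). They are 37.4% of the 401 in the Hydration list, out of all 19664 probes. The 229 had a median log2 difference of 1.34 on ABA and 1.37 in Hydration. Among them 72 had a called difference between the treatments (against 8.97% of all probes), 48 larger on ABA and 24 smaller. The 401 Hydration rises had a median of 1.32 in Hydration and 0.79 on ABA, where 321 were still called higher (against 8.57% of all probes). Of these 401, 190 had a called difference between the treatments (against 8.97% of all probes), and 184 of the 190 were smaller on ABA. The 401 were picked by their Hydration ratios and the 229 by their ABA ratios, so these counts are a description.

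The falls of Hydration were not found at that size on ABA. None of the 221 probes at least 2-fold lower in atg5 in Hydration was at least 2-fold lower on ABA (0 of 221 and 0 of 19). Only 0.0966% of all tested probes were that low on ABA, so the overlap of 0 is near that share. Their median log2 difference was -1.32 in Hydration and -0.16 on ABA, against -0.01 over all probes on ABA. It lay between -0.21 and -0.12 with processed signals, without background subtraction or without either ABA array, and was -0.57 with median centring. On ABA 47 of the 221 were called lower (21.3%, against 4.88% of all probes), 21 were called higher (9.5%, against 8.57%) and 153 did not pass the test. The treatments differed by the test at 200 of the 221 (against 8.97% of all probes), and at all 200 the ABA effect was the higher. This list too was picked by its Hydration ratios.

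A smaller number of probes changed sides. Called higher on ABA and lower in Hydration were 99 probes, and called lower on ABA and higher in Hydration were 40, each with a called difference. Of the 99, 37 were also raised at least 2-fold by ABA in the mean of both genotypes, and of the 40, 3 were. Of all tested probes 4.02% were raised. A rise of the atg5 signal alone moves a probe up in both measures. A rise of the WT signal alone moves it up in level and down in ratio. Both changes exceeded 2-fold at 6 probes, all of them lower in Hydration and higher on ABA, and at 0 probes the other way.

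**Figure D3:**
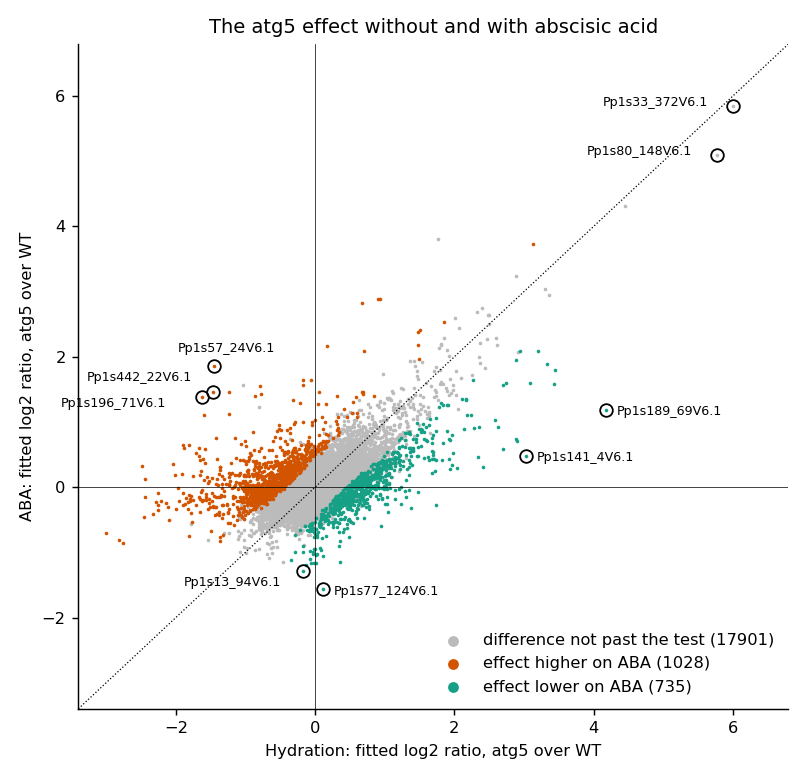
Fitted log2 difference of atg5 and WT in Hydration (horizontal axis) and on ABA (vertical axis), where each point is a probe and the dotted line marks equal effects. Orange marks the 1028 probes whose effect was higher on ABA and green the 735 whose effect was lower, and 3 named probes lie near -1.5 in Hydration and above 1.3 on ABA.

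Pp1s57_24V6.1 changed sides by the most. In Hydration WT read 2899 and 2748 and atg5 803 and 850, so atg5 was lower on both arrays. On ABA WT read 3096 and 3138 and atg5 11770 and 12610, so atg5 was higher on both. The fitted log2 difference was -1.45 in Hydration (adjusted p = 1.68e-05) and 1.86 ± 0.12 on ABA (3.63-fold, adjusted p = 9.32e-06). The change between the treatments was 3.31 ± 0.17 (adjusted p = 9.52e-06). By level, the probe went up 10.1-fold from Hydration to ABA in atg5 and 1.02-fold in WT.

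Pp1s196_71V6.1 rose on ABA in both genotypes. In Hydration it read 2467 and 4542 in WT, against 771 and 950.5 in atg5. On ABA it read 41980 and 45770 in WT and 107800 and 107600 in atg5, and the genotypes did not overlap in either state. The level rose 9.13-fold in WT and 73.5-fold in atg5. The fitted log2 difference turned from -1.63 to 1.39 ± 0.11 (adjusted p = 3.04e-05), a change of 3.02 ± 0.16 (adjusted p = 9.52e-06).

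Pp1s442_22V6.1 had the same order of values. WT read 1503 and 1317 in Hydration and 6762 and 6634 on ABA. In atg5 it read 382 and 265.5 in Hydration and 19700 and 15990 on ABA. The level rose 3.51-fold in WT and 26.7-fold in atg5. The fitted log2 difference was -1.47 in Hydration and 1.46 ± 0.13 on ABA (adjusted p = 5.51e-05). The other probe of this locus, Pp1s442_22V6.2, had ABA ratios of 1.55 and 1.37 and a fitted difference of 1.46.

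These 3 probes had one more feature in common. In Dehydration all 3 were higher in atg5, with log2 differences of 2.17 for Pp1s57_24V6.1, 1.39 for Pp1s196_71V6.1 and 1.33 for Pp1s442_22V6.1. In Rehydration Pp1s196_71V6.1 (-1.11) and Pp1s442_22V6.1 (-1.39) were lower again, whereas Pp1s57_24V6.1 was at -0.34, which did not pass the test (adjusted p = 0.1).

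**Figure D4:**
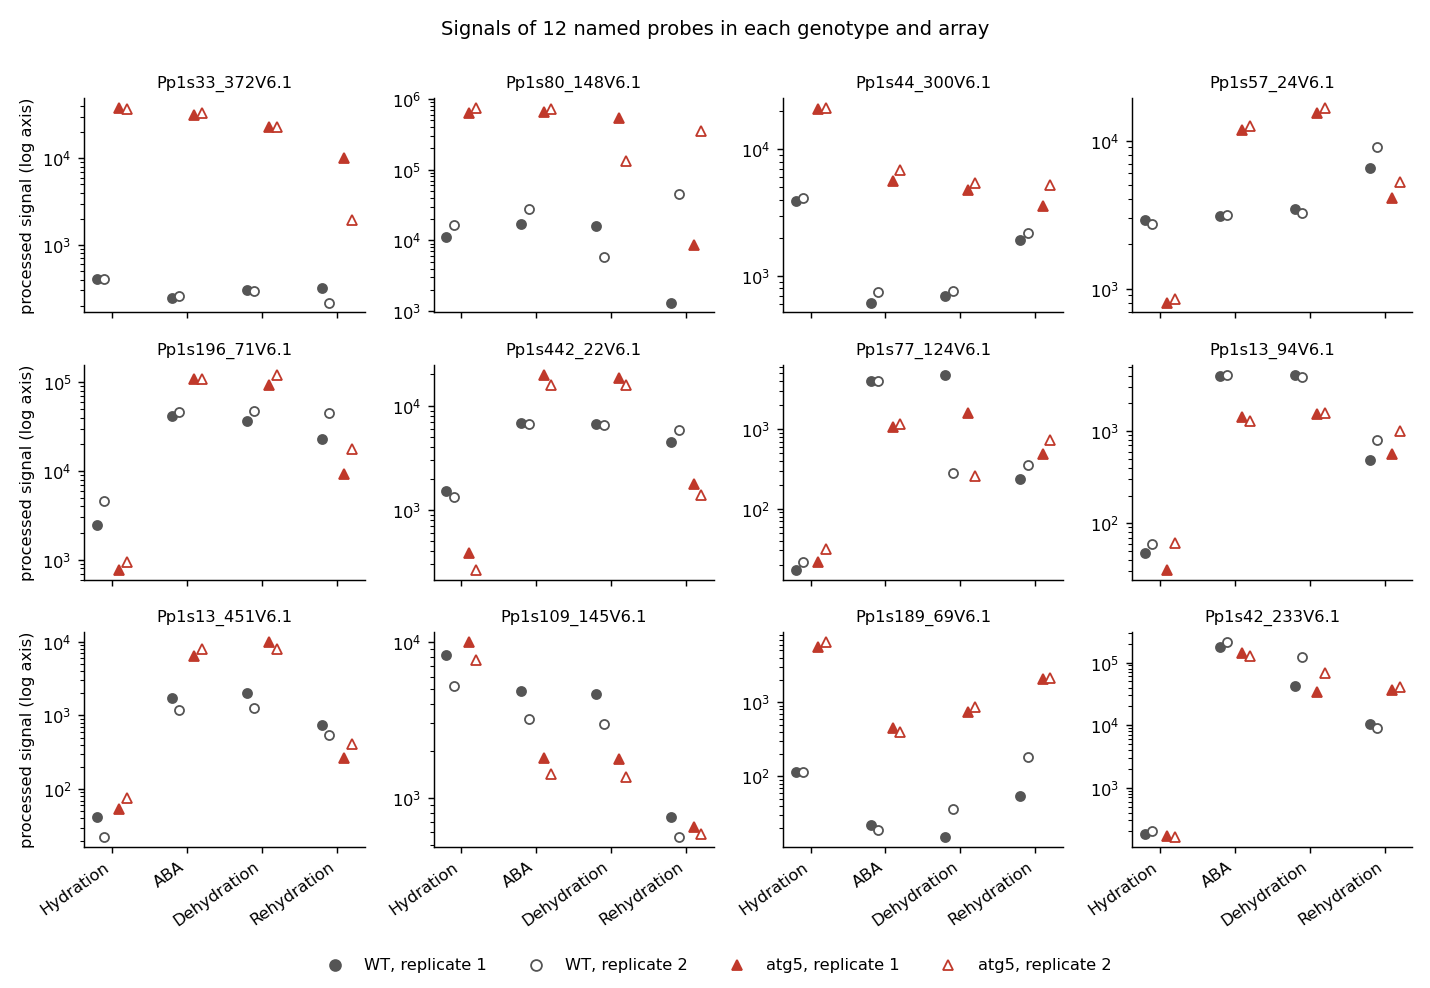
Processed signal (logarithmic vertical axis) of 12 named probes in the 4 treatments, with grey circles for WT and red triangles for atg5, filled for replicate 1 and open for replicate 2. Pp1s57_24V6.1, Pp1s196_71V6.1 and Pp1s442_22V6.1 have atg5 below WT in Hydration and above it on ABA and in Dehydration, and Pp1s77_124V6.1 and Pp1s13_94V6.1 leave the background only outside Hydration.

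The largest changes in the other direction were of transcripts that were high in atg5 in Hydration and lost most of that signal on ABA. Pp1s189_69V6.1 read 5601 and 6453 in atg5 in Hydration and 452 and 402 on ABA. In WT it read 114 and 116 in Hydration, and 22.4 and 18.7 on ABA, where it was not well above background. The log2 difference was 4.17 in Hydration, and atg5 was at least 2.28-fold higher on ABA (adjusted p = 2.66e-05). The fitted change of -2.98 takes the WT signal on ABA as measured, so it is an upper limit on the size of the drop, and it was -1.33 and not called with processed signals.

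Pp1s141_4V6.1 read 3808 and 1531 in atg5 in Hydration and 138 and 97.0 on ABA. In WT it read 59.1 and 89.5 in Hydration and 25.4 and 16.9 on ABA. It was well above background on ABA in atg5 on only 1 array and in WT on none (0 arrays). The fitted change of -2.55 is thus no measured size either. It was -1.86 without Hydration replicate 1 and -3.25 without Hydration replicate 2, and was not called with processed signals (-2.57). Its ABA difference of 0.48 ± 0.25 did not pass the test (adjusted p = 0.252).

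Probes were next grouped by the change from Hydration to ABA in the mean level of both genotypes. A change in a single genotype moves both this mean and the ratio, so class and atg5 effect are not independent. Pp1s57_24V6.1, for example, counted as raised, at 10.1-fold in atg5 and 1.02-fold in WT. From Hydration to ABA 790 probes (4.02%) were raised and 769 (3.91%) lowered at least 2-fold. Without ABA replicate 1 the number with any called change of level fell from 4052 to 2528, and it was 2511 and 2536 without Hydration replicates 1 and 2. Without normalisation between arrays 7779 were called, 1279 raised and 6500 lowered, so these classes rest on the assumption of equal level distributions.

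Transcripts of the raised class already differed between the genotypes in Hydration. A low Hydration signal in either genotype favours entry into the class. In Hydration 345 of the 790 (43.7%) were called lower in atg5, against 16.4% of all probes, and 54 (6.84%) were called higher, against 15.5%. Their median log2 difference was -0.22 in Hydration and -0.07 on ABA, against -0.03 and -0.01 over all probes. On ABA 91 of them (11.5%, against 8.57% of all probes) were called higher and 126 (15.9%, against 4.88%) lower.

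In the raised probes the change of the atg5 effect was mostly upward. The difference between the treatments was called at 256 of 790 (32.4%), beside 8.97% overall. The change was upward at 208 of the 256 and downward at 48. A rise in atg5 alone favours entry into this class and also counts as upward. A rise in WT alone favours entry likewise and counts as downward. The class was formed after earlier results were known as well, so these counts are a description. The count was 363 with the replicate block, 65 with processed signals (63 upward) and 0 with median centring, and between 156 and 188 without 1 of the 4 arrays. Where both genotypes were well above background in Hydration (459 probes), the medians were -0.29 in Hydration and -0.05 on ABA. Of these, 163 had a called difference, 140 of them upward.

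A further 121 raised probes were well above background on none of the Hydration arrays. On ABA 33 of them were called lower in atg5 (27.3%, against 4.88% of all probes) and 10 higher (8.26%, against 8.57%), with a median log2 difference of -0.16. Pp1s13_451V6.1 was one of the 10. It read 42.5 and 22.4 in WT and 54.4 and 74.8 in atg5 in Hydration. On ABA it read 1735 and 1185 in WT and 6301 and 7926 in atg5, with ratios of 2.01 and 2.32. The fitted difference was 2.16 ± 0.10 (4.48-fold, adjusted p = 8.26e-07), and the call was lost with processed signals (2.30). The rise on ABA was at least 3.11-fold in WT and at least 12.2-fold in atg5.

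**Figure D5:**
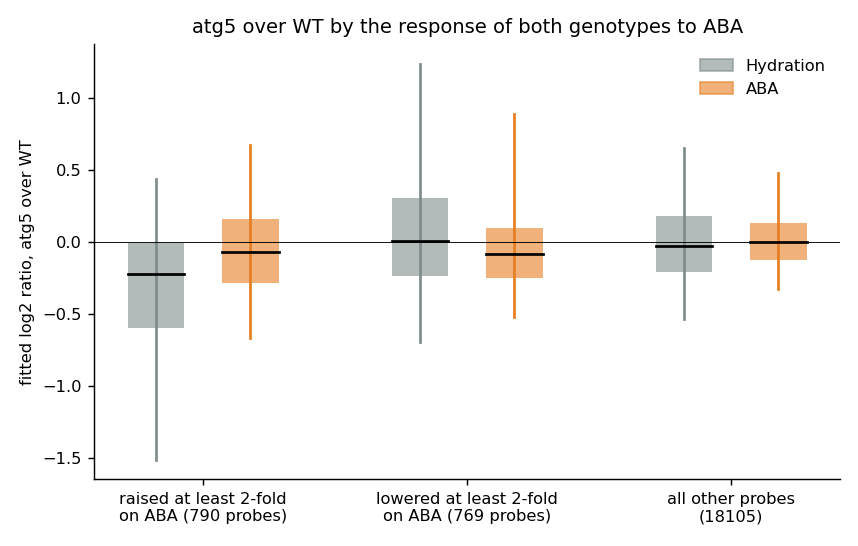
Fitted log2 difference of atg5 and WT (vertical axis) in Hydration (grey) and on ABA (orange) for probes raised or lowered at least 2-fold by ABA in the mean of both genotypes, and for all others. Boxes run from the 25th to the 75th percentile, lines from the 5th to the 95th, and black bars mark medians, which for raised probes are -0.22 in Hydration and -0.07 on ABA.

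Among the 769 lowered probes, 105 (13.7%, against 8.57% of all probes) were called higher and 111 (14.4%, against 4.88%) lower in atg5 on ABA, with 33 and 2 at least 2-fold. Their atg5 effect differed from Hydration at 158 (20.5%, against 8.97%), with 63 upward and 95 downward. Pp1s44_300V6.1 had the largest rise. WT read 3908 and 4090 in Hydration and 615 and 747 on ABA, and atg5 read 20640 and 21230 in Hydration and 5624 and 6911 on ABA. Both genotypes fell, by 3.56-fold in WT and 2.75-fold in atg5, and the atg5 excess was 2.69 ± 0.09 on ABA (6.47-fold, adjusted p = 1.31e-07) against 2.32 in Hydration. This change of 0.37 passed the test only with the replicate block (adjusted p = 0.0245, and 0.106 without). The other probe of the locus, Pp1s44_300V6.2, gave 2.75 on ABA.

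Pp1s16_315V6.3 showed the same course. It read 2401 and 2523 in WT and 16730 and 14360 in atg5 in Hydration. On ABA it read 336 and 358 in WT and 4457 and 3096 in atg5. The fitted difference was 2.64 ± 0.10 (6.22-fold, adjusted p = 1.86e-07), and 3.42 with processed signals. The other 3 probes of this locus gave 1.83 (Pp1s16_315V6.1), 2.64 (Pp1s16_315V6.2) and 2.50 (Pp1s16_315V6.4, on 1 array).

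The 2 lowered probes with falls in atg5 differed from each other in Hydration. Pp1s109_145V6.1 read 8249 and 5220 in WT and 9983 and 7624 in atg5 in Hydration, where the ranges overlapped and atg5 was the higher within each array (log2 0.36, adjusted p = 0.0373). On ABA it read 4860 and 3200 in WT and 1795 and 1427 in atg5, with no overlap. The ABA difference was -1.14 ± 0.12 (2.20-fold lower, adjusted p = 0.000165), and the change was -1.51 ± 0.17 (adjusted p = 0.000506). The level fell 3.84-fold in atg5 and 1.35-fold in WT.

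Pp1s244_45V6.1 read 13450 and 13080 in WT and 7350 and 7233 in atg5 in Hydration. On ABA it read 6555 and 7210 in WT and 3156 and 3422 in atg5. Its log2 difference was -0.68 in Hydration and -1.02 ± 0.09 on ABA (2.03-fold lower, adjusted p = 4.36e-05). The change of -0.34 ± 0.12 did not pass the test (adjusted p = 0.12), but did with the replicate block (adjusted p = 0.0426).

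Some probes were well above background in only 1 genotype on both ABA arrays. There were 71 detected in atg5 alone. Of these, 54 (76.1%, against 8.57% of all probes) were called higher in atg5. At least 2-fold higher were 18 of them, against 1.16% of all probes. Of 386 detected in WT alone, 9 (2.33%, against 4.88% of all probes) were called lower. Detection in 1 genotype favours a difference in that direction, so these counts are given without a test. Pp1s79_184V6.1 read 64.9 and 63.5 in WT, against 1205 and 1477 in atg5, at least 3.82-fold higher (log2 1.94 ± 0.16, adjusted p = 3.67e-05). In Hydration it was detected in both genotypes, at 163 and 160 in WT and 917 and 1028 in atg5. The ABA difference was log2 4.38 with processed signals.

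Pp1s163_92V6.1 read 27.3 and 49.4 in WT, against 666 and 1041 in atg5 on ABA, at least 3.48-fold higher (log2 1.80 ± 0.22, adjusted p = 0.000501). With processed signals the difference was log2 4.50. In Hydration the fitted value was log2 3.45, with WT well above background on 1 array, so the change between the treatments was not measured.

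In the other direction the values were near the threshold. Pp1s188_4V6.1 read 304 and 375 in WT, against 107 and 145 in atg5, at least 1.47-fold lower (log2 -0.56 ± 0.16, adjusted p = 0.046). Pp1s136_71V6.1 read 730 and 461 in WT, against 167 and 278 in atg5, at least 1.44-fold lower (log2 -0.53 ± 0.13, adjusted p = 0.0264). Both calls were lost without either ABA array, with processed signals (-1.44 and -1.43) and with no filter on dim probes. That of Pp1s188_4V6.1 was also lost without background subtraction and without the Rehydration arrays. Without ABA replicate 1 the values were -0.66 and -0.39, and without ABA replicate 2 they were -0.46 and -0.66.

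No probe passed the test for a difference between the atg5 effects on ABA and in Dehydration. The count was 0 of 19664 (0%) in limma's fit, with 1055 probes at an unadjusted p under 0.05, and 44 with the replicate block (16 higher on ABA, 28 lower). Without Dehydration replicate 1 it was 2. This does not show that the effects were equal: among the named probes the SE of the difference was 0.122 to 0.366 on the log2 scale. Of the 229 ABA rises, 200 were at least 2-fold higher in Dehydration (87.3% of the ABA list). Of all 19664 probes 343 were so there, and the 200 are 58.3% of them. The median log2 difference of the 229 in Dehydration was 1.51. Of the 19 falls 11 were at least 2-fold lower there (57.9%, and 44.0% of the 25 among all 19664 probes).

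Between ABA and Rehydration 2152 probes (10.9%) differed in the atg5 effect, 1310 higher on ABA and 842 lower. With the replicate block 4013 did. The count was 1141 and 976 without ABA replicates 1 and 2, and 1068 without Rehydration replicate 2. It was 1005 with processed signals, where the split was 481 higher and 524 lower, and median centring with the block gave 78 higher and 2593 lower. Median centring alone gave 0 (101 at an unadjusted p under 0.05). Of the 229 ABA rises 31 were at least 2-fold higher in Rehydration (13.5%, and 26.5% of the 117 among all 19664 probes). Their median log2 difference fell from 1.34 on ABA to 0.48 in Rehydration, and 175 had a called difference, 174 of them larger on ABA. The Rehydration arrays were the dimmest of the series, and the part of this in the smaller differences was not tested.

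Pp1s33_372V6.1 led this comparison as well. In Rehydration WT read 318 and 216 and atg5 10220 and 1939, so the genotypes stayed apart, with ratios of 2.87 and 1.49. The ABA effect exceeded this by 3.67 ± 0.36 (adjusted p = 0.000228). This change was 2.94 with processed signals and 2.98 without Rehydration replicate 2. WT was well above background on only 1 of the Rehydration arrays. The second rise was Pp1s442_22V6.1, described above, whose effect was -1.39 in Rehydration (WT 4515 and 5801, atg5 1774 and 1386). Its change was 2.86 ± 0.18 (adjusted p = 2.26e-05).

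Pp1s42_233V6.1 had the largest change in the other direction. It was among the transcripts that ABA raised most, from 184 and 207 in WT and 168 and 163 in atg5 in Hydration to 177900 and 211900 in WT and 145100 and 128300 in atg5. By normalised level the rise was 263-fold in WT. In atg5 it was 220-fold, with the Hydration signal well above background on 1 of its 2 arrays. The genotypes did not overlap on ABA, but the log2 difference of -0.39 ± 0.18 did not pass the test (adjusted p = 0.202). In Rehydration WT read 10250 and 9076 and atg5 35960 and 40900, a log2 difference of 1.74, and the change was -2.13 ± 0.26 (adjusted p = 0.000699).

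Pp1s372_62V6.1 read 2426 and 2447 in WT, against 1406 and 1545 in atg5 on ABA, a log2 difference of -0.55 ± 0.09 (1.47-fold lower, adjusted p = 0.00276). It was lower in atg5 in Hydration as well (-1.22), and higher in Rehydration (1.5), where WT read 3156 and 7868 and atg5 9749 and 29390. The change from Rehydration to ABA was -2.06 ± 0.13 (adjusted p = 2.1e-05).

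Different probes of the same locus can serve as a check on single spots, though how far their sequences overlap was not analysed. Of 2883 loci with at least 2 tested probes, 76.7% had the same sign of the ABA difference at every probe, and the median range within a locus was 0.08 on the log2 scale. Among the 599 such loci with a called probe, 94.5% had the same sign throughout and 264 had every probe called. No locus had called probes of opposite sign (0 of 599), but a locus with a single called probe could not have them. Of 48 loci with a probe at least 2-fold higher, 26 had every probe so.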

How the data were processed

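The deposited files hold spot intensities. Per the file headers the software was Agilent Feature Extraction 9.5.3.1, and version 9.1 per the submitters' processing notes. The authors' deposited table held the same processed signals in all 16 columns (39733 spots, tolerance 1e-04). Median pixel signals, which stand in for the planned means, were corrected with normexp (offset 50), normalised by loess and turned to atg5 over WT. Outlier-marked spots were dropped and spots of a probe averaged. A probe was kept if any genotype and treatment group had it well above background on both its arrays (19741 probes), of which 77 lacked a spot in some treatment. limma 3.58.1 (R 4.3.3) was fitted to the 8 arrays together, with a coefficient for each treatment. P-values were adjusted by Benjamini-Hochberg over all probes. Errors are SE, and the 2 arrays per group limit the precision. Levels used Aquantile normalisation. Bounds were set, per array, against the higher of the dim probe's own level and that of the dimmest detected probe. On ABA the former was the higher for the probes given with a bound between genotypes, whose bounds equal their fitted folds. Such a bound is on the mean of the arrays and leaves out its SE, so a single array can lie below it.

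Same-numbered arrays deviated together in their ratios (r 0.271 to 0.535 in all 6 pairs of treatments), so the number pairs the arrays and counts with it as a block are given. Mean levels did not pair (0.0278 to 0.0815). Named probes are the 2 largest rises and 2 largest falls in each genotype comparison and, on ABA, among probes raised, lowered or detected in 1 genotype, where the brightest probe stands for a locus. Members, classes and lists were chosen with earlier results of these data known. None of 38166 array identifiers matched the 27567 genes of the reference table (0), so gene lists and cell type markers were not analysed here.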

Additional observations from a re-analysis of the deposited data

Results flagged for a closer look

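The atg5 effect on ABA differed by the test from that in Hydration at 1763 probes and from that in Rehydration at 2152 probes. All values in the next sentences are differences of fitted log2 effects, ABA minus the other treatment, and each passed limma's test at an adjusted p under 0.05. The ABA arrays enter both comparisons, so their values are not independent.

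Against Hydration the named probes with a higher effect on ABA were Pp1s57_24V6.1 (3.31), Pp1s196_71V6.1 (3.02), Pp1s442_22V6.1 (2.93), Pp1s13_451V6.1 (2.0) and Pp1s372_62V6.1 (0.661). Those with a lower effect on ABA were Pp1s189_69V6.1 (-2.98), Pp1s141_4V6.1 (-2.55), Pp1s77_124V6.1 (-1.68), Pp1s163_92V6.1 (-1.65), Pp1s109_145V6.1 (-1.51) and Pp1s13_94V6.1 (-1.12).

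Against Rehydration the effect was higher on ABA at Pp1s33_372V6.1 (3.67), Pp1s442_22V6.1 (2.86), Pp1s80_148V6.1 (2.61), Pp1s196_71V6.1 (2.5), Pp1s13_451V6.1 (2.25) and Pp1s57_24V6.1 (2.2). It was also higher at Pp1s44_300V6.1 (1.98), Pp1s16_315V6.3 (1.68), Pp1s163_92V6.1 (1.58) and Pp1s79_184V6.1 (1.5). It was lower on ABA at Pp1s42_233V6.1 (-2.13), Pp1s372_62V6.1 (-2.06), Pp1s77_124V6.1 (-1.95), Pp1s13_94V6.1 (-1.49), Pp1s109_145V6.1 (-1.06) and Pp1s189_69V6.1 (-0.604).

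Some of these values set a measured effect against one that was not measured, and their sizes are then only those of the fit. On ABA, WT was not well above background at Pp1s189_69V6.1, Pp1s141_4V6.1, Pp1s163_92V6.1 and Pp1s79_184V6.1. Neither genotype was so in Hydration at Pp1s77_124V6.1, Pp1s13_94V6.1 and Pp1s13_451V6.1, nor in Rehydration at Pp1s13_451V6.1. In Rehydration WT was so on neither array and atg5 on only 1 at Pp1s163_92V6.1. WT was so on only 1 Rehydration array at Pp1s33_372V6.1, Pp1s77_124V6.1, Pp1s189_69V6.1, Pp1s16_315V6.3 and Pp1s79_184V6.1.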

How the results depend on the processing

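No named result reversed under any alternative tried, and 242 of their values kept direction and side of the threshold while 42 lost the call, 22 of them with median centring alone. Without loess the median SE on ABA was 0.378 against 0.105, so counts of 0 there do not show that differences vanish. With median centring the counts were 0 on ABA (168 at an unadjusted p under 0.05), against Hydration (234) and against Rehydration (101), and 0 for the raised class. The median on ABA of the 221 Hydration falls was then -0.57. With processed signals the counts were 426 on ABA, 124 against Hydration, 1005 against Rehydration and 65 in the raised class, and with the replicate block as well they were 499 on ABA and 149 against Hydration. With no filter on dim probes they were 1630, 948 and 1357, and 66.3% of loci with several probes kept 1 sign. The replicate block gave 4589, 3811, 4013 and, against Dehydration, 44, and added a called change from Hydration at Pp1s44_300V6.1, Pp1s244_45V6.1 and Pp1s79_184V6.1 (adjusted p 0.0372, against 0.194). It changed no other call of a named probe on ABA, against Hydration or against Rehydration. At least 2-fold as well left 248 on ABA and an adjusted p under 0.01 left 1170. The raised class had 163 called differences among probes detected in Hydration. Changes of level numbered 7779 without normalisation between arrays. Leaving out 1 array gave 760 to 874 on ABA, 590 to 861 against Hydration, 976 to 1437 against Rehydration, 0 to 2 against Dehydration, 2511 to 2733 for levels and 156 to 188 in the raised class. The raised class, the Hydration falls and the combined settings were chosen after seeing the data. The cause of these changes was not tested, beyond fewer arrays or other probes in the fit. Signal over background limits the dim probes: 0 of the 4916 dimmest probes were called at 2-fold.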

Other observations

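Identifiers in the array's gene set carry a scaffold number and a number along that scaffold. After the values were seen, the 174 loci at least 2-fold higher in atg5 on ABA by their brightest probe were checked for close numbers. Another such locus lay within 1 number for 6 of them (3.45%, against 88 of 15446 tested loci, 0.57%) and within 5 numbers for 18 (10.3%, against 408 loci, 2.64%). These are counts without a test. Probe sequences were not used, so related transcripts read by both probes cannot be told apart from separate transcripts. The pair with the highest ABA values was Pp1s136_199V6.1 (log2 3.73) and Pp1s136_203V6.1 (3.23). Next were Pp1s292_31V6.1 (2.29) with Pp1s292_33V6.1 (2.53), and Pp1s109_228V6.1 (2.00) with Pp1s109_232V6.3 (2.38). Pp1s196_71V6.1 (1.39) and Pp1s442_22V6.1 (1.46), both lower in atg5 in Hydration, had neighbours at Pp1s196_72V6.2 (1.00) and Pp1s442_25V6.1 (1.37).

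Across probes the mean ABA ratio correlated with that in Dehydration at 0.857, in Hydration at 0.577 and in Rehydration at 0.269, over 19664 probes that share arrays, slides and dyes. Between arrays of opposite dye orientation and on different slides the values were 0.679 and 0.68 for Dehydration, 0.46 and 0.48 for Hydration, and 0.191 and 0.142 for Rehydration.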
